A study of Mus musculus with 6 samples.

Results

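The comparison described here set the 2 distal colon libraries against the 2 middle colon libraries of an RNA sequencing series of mouse colon epithelium, 4 of its 6 libraries, chosen by the tissue label. All libraries came from epithelial cells of untreated wild-type mice of the inbred C57BL/6J strain. Each region (proximal, middle and distal colon) had 1 male and 1 female library, so n = 2 per region throughout. No label gives the age, the isolation of the epithelium, how many mice went into a library or whether the regions of a sex shared mice. A p-value below therefore refers to these libraries only. It sets a difference against the spread left among them after region and sex are fitted, part of which may be technical.

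The colon epithelium is a single layer of absorptive colonocytes, mucus-secreting goblet cells and scattered enteroendocrine and tuft cells, renewed from stem cells in crypts. Its segments differ in what they absorb and secrete: the proximal colon receives fluid content rich in bacterial products, whereas the distal colon dries and compacts the stool behind a mucus layer. Positional identity is set in the embryo by homeobox genes. Cdx2 specifies intestinal epithelium, and the HOX clusters are switched on in order from their 3′ to their 5′ end along the body axis, so that the 5′ genes such as Hoxd13 mark the hindmost gut. The question here was what still changes between the middle and the distal colon, the second step along the organ.

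Values were FPKM, which are fragment numbers scaled for transcript length and library size, as deposited, and were analysed as log2(FPKM + 1). Of 24346 gene entries, 11815 reached an FPKM of at least 1 in 2 or more of the 6 libraries and were tested. The difference between the regions (distal minus middle) was fitted with limma, with sex as a term and all 6 libraries sharing 1 estimate of the spread. Genes with a Benjamini-Hochberg adjusted p under 0.05 over all 11815 are said to have risen or fallen.

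The 4 libraries carried epithelial RNA, at similar depth within each sex. Estimated depths in the middle and distal libraries were 7.86 and 7.82 M fragments in the male and 9.79 and 9.89 M in the female. Depth thus went with the sex term. In the 4 libraries 11170 to 11412 genes had an FPKM of at least 1. The 10 epithelial markers, Epcam and Krt8 among them, summed to 12962 to 14965 FPKM, and the Y-linked and Xist levels matched the labelled sex in every library. In the female middle library Ddx3y, Eif2s3y and Kdm5d had 0.091, 0.258 and 0.173 FPKM, against 9.66, 34.0 and 11.2 FPKM in the male one. These Y-linked genes were listed at 0 in the female proximal and distal libraries. The source of the low values was not tested. The 18 T lymphocyte markers summed to 17.8 and 29.7 FPKM in the middle and 16.2 and 21.4 FPKM in the distal libraries (male, then female, here and below). The 8 B and plasma cell markers in the files stayed at or below 1.81 FPKM in sum, and the 16 stroma and muscle markers lay between 11.4 and 17.2 FPKM. Myeloid and mast cell markers summed to 5.28 to 12.2 FPKM. Markers of endothelium, glia and blood, nearly all of it haemoglobin RNA, summed to 221 and 203 FPKM in the middle and 269 and 72.0 FPKM in the distal libraries. Of 19 squamous markers, whose source could be the anal margin, 9 were listed at 0 in all 4 libraries and the rest summed to 3.84 to 5.84 FPKM. The middle libraries were less alike than the distal ones. Their median absolute difference was 0.20 on the log2 scale, against 0.14 between the distal libraries, and the female middle library lay nearer the distal libraries (0.16 and 0.15) than the male middle library did (0.19 and 0.23).

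Between the middle and the distal colon, 59 of the 11815 genes changed (0.499%), of which 13 rose (0.11%) and 46 fell (0.389%). The log2 differences of these 59 ran from -4.36 for Apol10a to 5.26 for Hoxd13, and 55 were of at least 1 in size. All 59 differed the same way in both sexes with no overlap between the regions; over all tested genes the regions did not overlap in 39.7%, with the distal colon higher in 20.5% and lower in 19.1%. Of the 46 genes that fell, 44 were lower in the female than in the male middle library, and of the 13 that rose, 9 were higher in the female. In these genes the female middle library sat between the male middle library and the distal pair. Both proximal libraries lay above both middle libraries in 35 of the 46 genes that fell and in 6 of the 13 that rose. The matching shares over all tested genes were not counted. Of the 13 genes that rose, 5 (Hoxd10, Hoxd11, Hoxd13, Krt36 and Slc34a2) reached an FPKM of 1 in the 2 distal libraries alone, and of the 46 that fell, Snora21 did so in the 2 middle libraries alone. These 6 were admitted to the test through the group where they are high, as were 32 and 17 tested genes in all, so their calls are not independent of the filter. A further count, at an unadjusted p under 0.05, took in 663 genes higher (5.61%) and 836 genes lower (7.08%) in the distal colon. The call count rested on single libraries. It was 0 without the distal male library (753 at an unadjusted limma p under 0.05), 7 without the distal female, 1 without the middle male, 36 without the middle female and 406 without either proximal library. The distal and middle libraries alone gave 410 calls (3.47%), among them all 59, with 148 higher (1.25%) and 262 lower (2.22%), but with only 1 residual degree of freedom.

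**Figure D1:**
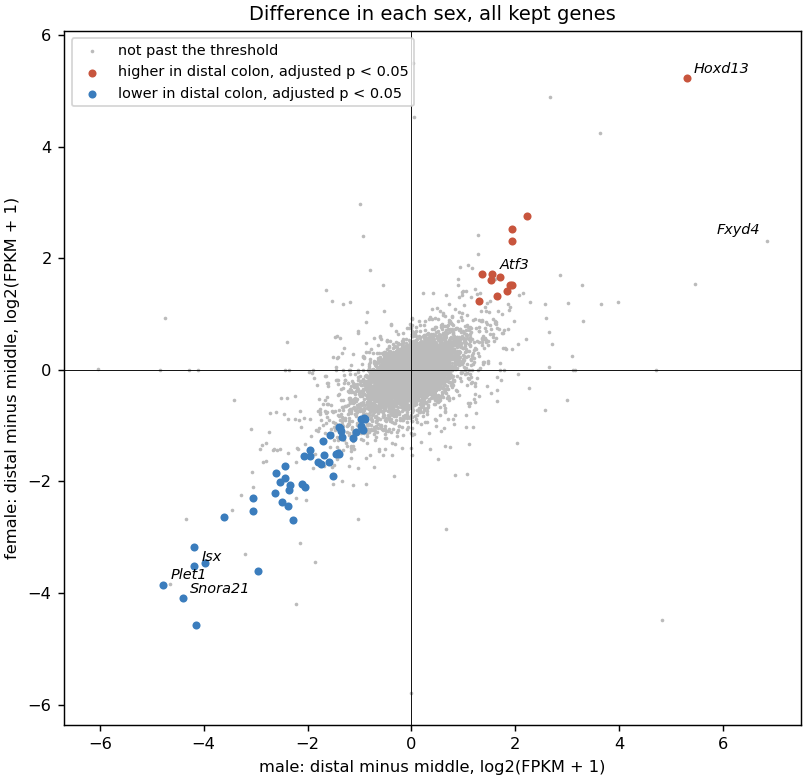
Each point is 1 of the 11815 tested genes, placed by its distal minus middle difference in log2(FPKM + 1) in the male libraries (horizontal axis) and the female libraries (vertical axis). The 13 genes that rose lie in the upper right, led by Hoxd13, and the 46 that fell lie in the lower left, while Fxyd4, with large but unequal differences in the sexes, did not pass the threshold.

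Hoxd13 marked the step from middle to distal colon most sharply. This gene lies at the 5′ end of the Hoxd cluster (mm10, chromosome 2, 74668310 to 74671599, plus strand). Its level was 0 and 0.621 FPKM in the middle libraries, and 38.4 and 59.7 FPKM in the distal libraries. Both distal libraries were far above both middle libraries, and the proximal libraries, at 0 and 0.441 FPKM, resembled the middle ones. The log2 difference was 5.26 with a standard error of 0.15 (limma, adjusted p = 0.001142). It passed under 13 of 14 alternative settings, with adjusted p from 9.22e-05 to 0.05487, the highest without the distal male library.

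The neighbouring Hoxd genes had the same distribution at lower levels. Hoxd11, which begins 7958 bases after the end of Hoxd13, was listed at 0 in both middle libraries, with 3.71 and 5.78 FPKM in the distal ones. Hoxd10, a further 4908 bases along, was listed at 0 in both middle libraries, with 2.85 and 4.76 FPKM in the distal ones. Their limma adjusted p was 0.027 and 0.040, but both entered the test only through their distal values, and with no filter on low values neither passed (adjusted p = 0.10 and 0.11). Hoxd12, which lies between Hoxd13 and Hoxd11, was listed at 0 in both middle and both proximal libraries and had 2.07 FPKM in each distal library, with an adjusted p of 0.066. Because a listed 0 can be a failed estimate, no fold is given for these 3 genes.

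The rest of the HOX family did not pass. Of 16 posterior HOX genes on the list (paralogue groups 9 to 13), 10 were tested, among them the 4 Hoxd genes just described, which reached the minimum level through the distal libraries alone. None of the other 6 passed in limma, 1 had an unadjusted p under 0.05 and 5 had a fitted difference below 0. Hoxb13, the last gene of the Hoxb cluster and picked after its values were seen, differed greatly between the sexes in the middle colon, with 161 and 339 FPKM there and 457 and 527 FPKM in the distal libraries. Its regions did not overlap, but the difference of 1.07 had a standard error of 0.99. None of the 15 tested anterior HOX genes passed in limma (1 was lower at an unadjusted p under 0.05), and 14 of them had a fitted difference below 0. Hoxb6, for example, had 3.70 and 0.633 FPKM in the middle colon, then 0 and 0.180 FPKM in the distal colon.

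The start of Hoxd13, the gene with the largest increase, is shown beside those of Nr4a1, Atf3 and Dusp5, which also rose and are known to respond to signals (described below). Arc and Sik1, described with them, have no window in the RefSeq table. Each line gives the 250 bases before the RefSeq transcription start in GRCm38.p6 on the gene's own strand. Capitals mark TATAAA (the core of a TATA box) in Hoxd13 and TGACG (the half-site of the cAMP response element) in the others, on either strand, with overlapping matches joined.
Hoxd13, chr2:74667975-74668224, plus strand: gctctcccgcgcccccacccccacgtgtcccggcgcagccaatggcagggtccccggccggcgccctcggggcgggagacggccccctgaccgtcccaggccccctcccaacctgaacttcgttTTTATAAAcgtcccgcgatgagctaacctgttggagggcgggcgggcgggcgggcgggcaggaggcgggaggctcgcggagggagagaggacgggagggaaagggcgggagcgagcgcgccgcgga
Nr4a1, chr15:101266596-101266845, plus strand: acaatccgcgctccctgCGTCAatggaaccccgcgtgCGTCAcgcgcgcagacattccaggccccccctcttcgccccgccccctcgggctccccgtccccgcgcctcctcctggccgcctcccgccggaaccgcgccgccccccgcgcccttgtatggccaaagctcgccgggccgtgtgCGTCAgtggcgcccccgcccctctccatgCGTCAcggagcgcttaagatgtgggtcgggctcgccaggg
Atf3, chr1:191183334-191183583, minus strand: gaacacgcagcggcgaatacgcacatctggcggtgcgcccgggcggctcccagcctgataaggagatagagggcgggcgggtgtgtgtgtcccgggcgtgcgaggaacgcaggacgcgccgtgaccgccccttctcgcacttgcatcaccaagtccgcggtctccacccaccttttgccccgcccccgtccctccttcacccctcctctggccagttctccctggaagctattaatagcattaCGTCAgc
Dusp5, chr19:53528895-53529144, plus strand: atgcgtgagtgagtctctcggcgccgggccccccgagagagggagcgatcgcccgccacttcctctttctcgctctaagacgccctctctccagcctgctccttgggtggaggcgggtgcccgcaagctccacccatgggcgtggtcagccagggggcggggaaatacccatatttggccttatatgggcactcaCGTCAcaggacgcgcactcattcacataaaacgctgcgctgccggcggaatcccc
Hoxd13 held 2 overlapping matches, starting 126 and 124 bases before the RefSeq start. Its window ends at base 74668224, upstream of the GENCODE gene start at 74668310. The bases after it were not found in an annotated transcript, unlike those after the Nr4a1, Atf3 and Dusp5 windows, so its start is less certain. The Nr4a1 and Atf3 windows lie inside the GENCODE genes (101254269 to 101274795 and 191170296 to 191218039). They therefore do not precede the outermost starts of those genes. Nr4a1 held 4 half-sites, starting 233, 213, 69 and 40 bases before the start, Dusp5 held 1 at 55 bases and Atf3 held 1 at 7 bases. RefSeq gave promoters for 45 of the 59 changed genes. TGACG or its reverse complement was in 5 of 11 windows of genes that rose (45.5%), those of Atf3, Dusp5, Nr4a1, Hoxd11 and Krt36, in 5 of 44 windows of genes that fell (11.4%) and in 17.8% of all 32851 windows of this length. TATAAA was in 9.09%, 13.6% and 12.4% of the same windows. In the same order, the Cdx-type site CCATAAA was in 0.0%, 2.27% and 2.43%. The posterior HOX-type site CAATAAA was in 0.0%, 2.27% and 4.2%. The full element TGACGTCA was in none of the windows of changed genes and in 1.55% of all windows. These letter matches are a description of the windows and not evidence of binding.

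Several genes that rose are known to respond to signals. Early-response genes are switched on within minutes of a growth factor, calcium or stress signal, and the 5 described here were grouped after they were seen to rise, 2 of them from the list of immediate-early genes. Nr4a1, an orphan nuclear receptor, had 43.2 and 51.1 FPKM in the middle libraries and 143 and 164 FPKM in the distal libraries. Both distal values lay well above both middle values, and the log2 difference was 1.68 with a standard error of 0.09 (limma, adjusted p = 0.012). The proximal libraries, at 57.0 and 63.1 FPKM, lay above the middle and below the distal ones. Atf3, a stress-inducible transcription factor of the ATF/CREB family, went from 201 and 220 FPKM to 593 and 722 FPKM (log2 difference 1.63, SE 0.14, limma adjusted p = 0.025). Its middle libraries were also below the proximal ones, at 435 and 614 FPKM, so the middle colon was the low point. Dusp5, a nuclear phosphatase that switches off ERK, followed the same course, with 55.1 and 70.8 FPKM in the proximal, 34.6 and 34.2 FPKM in the middle and 111 and 86.8 FPKM in the distal libraries (log2 difference 1.49, SE 0.18, limma adjusted p = 0.048). Between proximal and middle colon, Atf3 passed (limma, adjusted p = 0.026), whereas Dusp5 (0.079) and Nr4a1 (0.13) did not. The difference between the 2 steps, described below, did not pass for these genes (limma, adjusted p = 0.058 for Atf3 and Nr4a1 and 0.24 for Dusp5).

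Arc and Sik1, also known as signal-responsive genes, rose as well. Like Dusp5 they were not on that list. Arc, an activity-regulated gene best known from neurons, had 25.8 and 29.8 FPKM in the middle libraries and 98.5 and 87.5 FPKM in the distal libraries, a difference of 1.71. Sik1, a salt-inducible kinase, had 4.58 and 5.22 FPKM and then 12.8 and 13.7 FPKM, a difference of 1.27. In both genes every distal value exceeded every middle value, with limma adjusted p of 0.026 for Arc and 0.031 for Sik1. Both proximal values also exceeded both middle values, at 39.0 and 53.2 FPKM for Arc and 5.48 and 7.19 FPKM for Sik1. That first step did not pass for either gene (limma, adjusted p = 0.093 for Arc and 0.28 for Sik1). Of the 19 tested immediate-early genes on the list, which respond to tissue handling as well as to signals in the animal, 2 rose (Atf3 and Nr4a1) and 17 did not pass. At an unadjusted p under 0.05, 11 were higher and 2 lower. The summed level of the list was 4159 and 3777 FPKM in the middle, 5867 and 5939 FPKM in the distal and 4956 and 5807 FPKM in the proximal libraries. Of 11 heat-shock genes, none passed and 3 were lower at an unadjusted p under 0.05, Hspa1a at 164 and 120 FPKM in the middle and 68.7 and 45.6 FPKM in the distal libraries. Differences in handling between the regions were not tested.

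The remaining genes that rose are described singly. Pdp1, the phosphatase that activates pyruvate dehydrogenase, had 4.19 and 7.13 FPKM in the middle and 18.9 and 22.3 FPKM in the distal libraries (difference 1.73, SE 0.15, limma adjusted p = 0.026). Trpv3, a warmth-sensitive cation channel, had 4.27 and 7.64 FPKM and then 17.9 and 21.9 FPKM, after 0.613 and 1.85 FPKM in the proximal colon, so that it climbed at both steps (1.65, then 1.63). Slc34a2, a sodium-phosphate cotransporter, had 0.601 and 0.892 FPKM in the middle and 3.65 and 4.79 FPKM in the distal libraries. Utp14b, with a difference of 1.54, lies inside Acsl3 on the same strand, so its reads may partly be those of Acsl3. It was lowest in the middle libraries, at 8.66 and 7.64 FPKM, after 21.0 and 17.4 FPKM in the proximal ones. That first step passed as well (limma, adjusted p = 0.028). Krt36, a keratin of hair and other hard epithelia, had 0.516 and 0.553 FPKM in the middle and 4.78 and 6.67 FPKM in the distal libraries; it fell outside the rule for named genes and was picked after its values were seen.

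**Figure D2:**
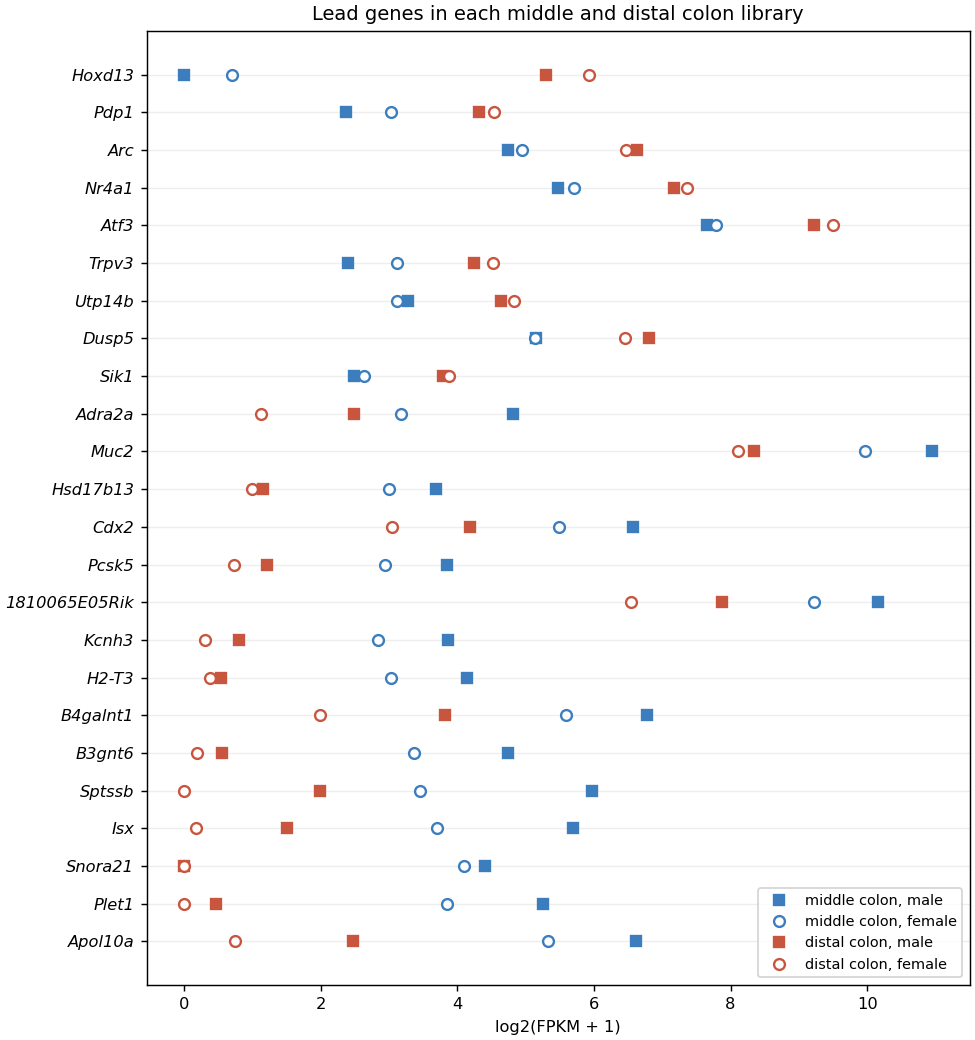
Level of each lead gene that passed the threshold, in log2(FPKM + 1), in the 2 middle (blue) and 2 distal (red) libraries, with squares for male and circles for female. The red and blue symbols do not overlap in any row, and among the genes that fell the female middle library (blue circle) lies left of the male one (blue square).

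The genes that fell included 2 transcription factors of intestinal identity. Cdx2, the homeobox factor that specifies intestinal epithelium, had 93.6 and 43.9 FPKM in the middle and 17.3 and 7.25 FPKM in the distal libraries. All middle values exceeded all distal ones, and Cdx2 fell by 2.41 in log2 units (SE 0.26, limma adjusted p = 0.039). Isx, an intestine-specific homeobox factor that represses vitamin A uptake genes, went from 50.8 and 12.0 FPKM to 1.84 and 0.130 FPKM. Isx had already been lower in the middle than in the proximal libraries, at 175 and 95.9 FPKM, and it fell by 3.85 (SE 0.26, limma adjusted p = 0.015). The other 22 of 24 tested intestinal transcription factors did not pass, and the list's median difference was 0.04. Klf5, a factor of crypt cells, had 187 and 212 FPKM in the middle and 251 and 287 FPKM in the distal libraries.

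The main mucin gene and several glycosyltransferase genes were lower in the distal colon. Muc2, the gel-forming mucin of goblet cells, had 1980 and 997 FPKM in the middle libraries and 323 and 275 FPKM in the distal libraries. Both distal libraries were below both middle ones, and the proximal libraries, at 1607 and 1373 FPKM, were near the middle level. Muc2 fell by 2.23 in log2 units (SE 0.23, limma adjusted p = 0.036). It was the only one of 19 tested goblet cell genes past the threshold; 13 were lower and none higher at an unadjusted p under 0.05, and the median difference was -0.56. Fcgbp, a protein bound into the mucus gel, had 551 and 765 FPKM in the middle and 295 and 439 FPKM in the distal libraries. The goblet cell genes summed to 12762 and 17776 FPKM in the middle and 9693 and 10445 FPKM in the distal libraries. Both were lower still in the proximal libraries, Fcgbp at 128 and 219 FPKM and the summed list at 6995 and 7628 FPKM. In bulk libraries such as these, fewer cells of a type and less RNA per cell cannot be told apart.

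Of 41 tested genes for glycosylation of mucins and related glycans, 3 fell and none rose. B3gnt6, which builds the core 3 O-glycan of intestinal mucin, had 25.8 and 9.30 FPKM in the middle and 0.470 and 0.139 FPKM in the distal libraries, and fell by 3.68 (SE 0.34, limma adjusted p = 0.026). B4galnt1, which makes the gangliosides GM2 and GD2, went from 108 and 47.3 FPKM to 13.2 and 2.96 FPKM, and fell by 3.28 (SE 0.32, limma adjusted p = 0.030). B4galnt2, which makes the Sda blood group antigen, went from 215 and 134 FPKM to 83.6 and 62.4 FPKM, and fell by 1.22 (SE 0.11, limma adjusted p = 0.026). The regions were separated for all 3 genes, most widely for B3gnt6. A4gnt, which caps mucin glycans in gland mucins, had 6.30 and 3.88 FPKM in the middle and 1.64 and 1.3 FPKM in the distal libraries, with an adjusted p of 0.053. Over the list, 14 genes were lower and 5 higher at an unadjusted p under 0.05, with a median difference of -0.20.

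**Figure D3:**
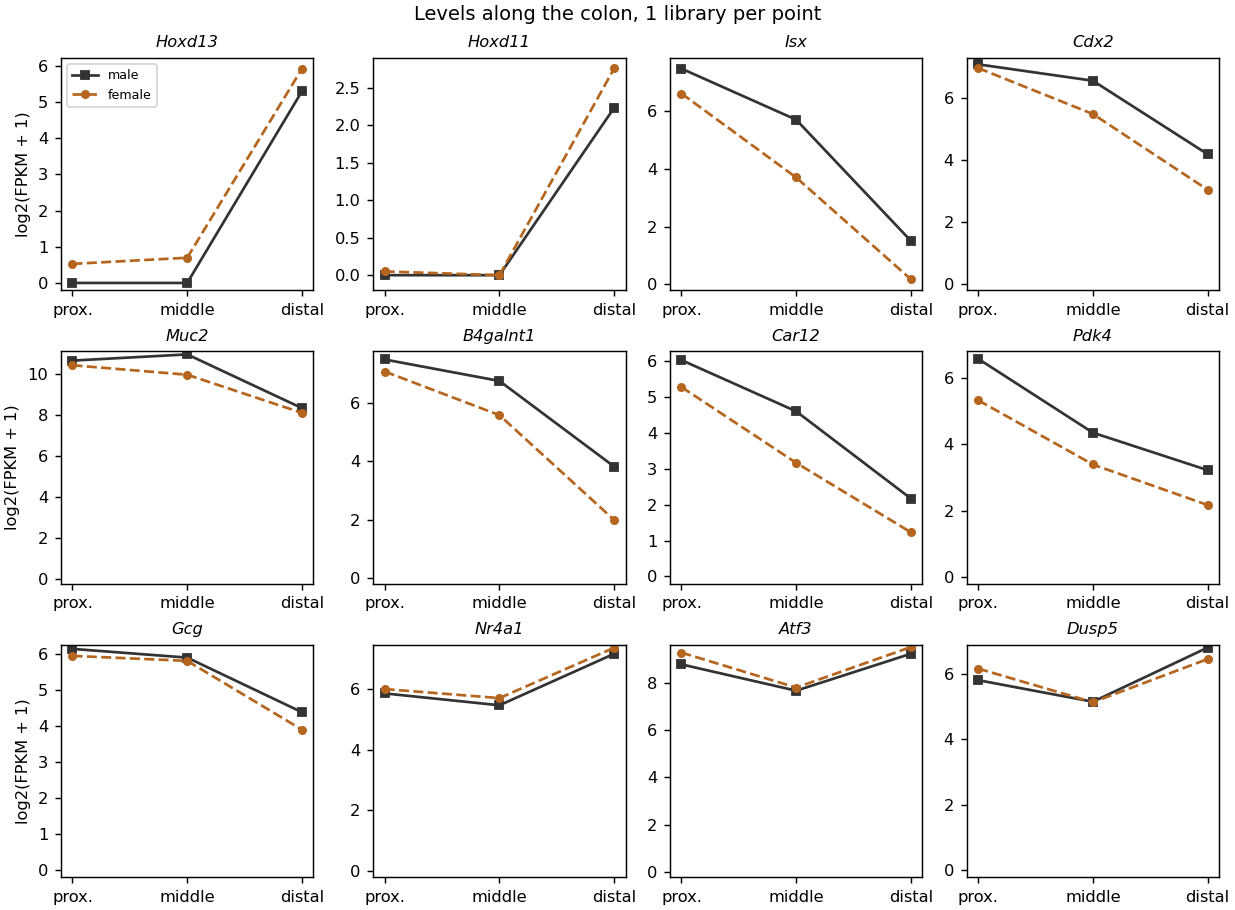
Level of 12 genes in log2(FPKM + 1) along the proximal (prox.), middle and distal colon, 1 library per point, with the male libraries joined by solid and the female by dashed lines. Hoxd13 and Hoxd11 are high in the distal libraries alone. Isx and Car12 decline at both steps, and Muc2 and Gcg change at the second step. Nr4a1, Atf3 and Dusp5 are lowest in the middle colon.

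Genes of fuel use changed in part. Pdk4, the kinase that shuts off pyruvate dehydrogenase, had 94.7 and 39.2 FPKM in the proximal, 19.4 and 9.5 FPKM in the middle and 8.33 and 3.50 FPKM in the distal libraries, and fell by 1.18 (SE 0.12, limma adjusted p = 0.031). Pdk4 and Pdp1, the enzyme that reverses its action, moved in opposite directions at this step. Over 30 tested genes of fatty acid oxidation the median difference was -0.09. Fabp2, which carries fatty acids in the enterocyte, had 573 and 184 FPKM in the middle and 61.6 and 17.7 FPKM in the distal libraries. Its difference of -3.25 did not pass (SE 0.42, limma adjusted p = 0.060), and none of the 16 tested genes of fat absorption passed, with 7 lower and none higher at an unadjusted p under 0.05.

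Acid-base and ion transport genes changed singly. Car12, a membrane-bound carbonic anhydrase, had 23.4 and 8.0 FPKM in the middle and 3.51 and 1.35 FPKM in the distal libraries, and fell by 2.19 (SE 0.18, limma adjusted p = 0.025). Car8, a relative without catalytic activity, went from 3.26 and 2.49 FPKM to 0.437 and 0.547 FPKM. Its proximal libraries had 20.4 and 17.7 FPKM, and the first step (-2.38) was larger in size than this one (-1.37). The other 9 of 11 tested carbonic anhydrases did not pass. Cldn15, a claudin that forms cation pores between cells, had 124 and 96.5 FPKM in the middle and 46.0 and 33.6 FPKM in the distal libraries, and fell by 1.45 (SE 0.13, limma adjusted p = 0.026). It was alone among 17 tested tight junction genes. Ano7, a member of the anoctamin family, went from 27.6 and 18.8 FPKM to 9.99 and 8.56 FPKM, and was the only one of 15 tested genes of anion secretion that changed. Guca2a, the gene of guanylin, a peptide that drives fluid secretion, had 5351 and 3896 FPKM in the middle and 2612 and 1148 FPKM in the distal libraries. Neither it (difference -1.40, SE 0.38, limma adjusted p = 0.22) nor any other of the 5 guanylin pathway genes passed, and 3 were lower at an unadjusted p under 0.05. The median difference of the 5 was -0.67.

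None of 23 tested genes of sodium absorption, which aldosterone controls in the distal colon, passed in limma. At an unadjusted p under 0.05, 5 were higher and 3 lower, and the median difference was 0.17. Fxyd4, a regulator of the sodium pump, had 0.720 and 122 FPKM in the male and female middle libraries and 197 and 606 FPKM in the distal libraries. The female middle library alone was near the distal range, and the difference of 4.58 had a standard error of 1.13 (limma, adjusted p = 0.20). Atp12a, a proton-potassium pump of colonocytes, had 23.1 and 125 FPKM in the middle and 237 and 231 FPKM in the distal libraries. Scnn1g, the gamma subunit of the epithelial sodium channel, had 0.956 and 2.16 FPKM and then 3.73 and 12.3 FPKM. In these 2 genes the regions did not overlap. The middle libraries were far apart for Atp12a, and the distal libraries were the further apart for Scnn1g.

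Hormone and chemosensory cell genes were lower in part. Gcg, the proglucagon gene of L cells, had 58.3 and 54.6 FPKM in the middle and 19.7 and 13.8 FPKM in the distal libraries. The middle libraries were close to each other and to the proximal ones, at 69.1 and 60.2 FPKM, and Gcg fell by 1.71 (SE 0.13, limma adjusted p = 0.018). Pyy, a hormone made by the same cells, had 79.1 and 176 FPKM in the middle and 78.3 and 115 FPKM in the distal libraries, and here the regions overlapped. Gcg was the only one of 16 tested enteroendocrine genes that passed, although 14 had a fitted difference below 0. All 6 tested tuft cell markers were lower at an unadjusted p under 0.05 and none passed. Their median difference was -1.08, and their list summed to 19.8 and 14.3 FPKM in the middle and 5.78 and 3.72 FPKM in the distal libraries. Trpm5, the cation channel of tuft cells, had 3.46 and 2.03 FPKM and then 0.578 and 0.265 FPKM.

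Other genes that fell strongly belong to no single pathway. Plet1, a surface protein of epithelial progenitors, had 37.1 and 13.4 FPKM in the middle libraries, then 0.387 FPKM and 0 in the distal libraries. Apol10a, of the apolipoprotein L family, had 96.9 and 39.0 FPKM and then 4.53 and 0.676 FPKM, and Sptssb, a small subunit of the enzyme that starts sphingolipid synthesis, had 62.0 and 9.98 FPKM and then 2.99 FPKM and 0. These 3 fell, with log2 differences of -4.32, -4.36 and -3.72 and limma adjusted p of 0.023, 0.026 and 0.046. All 3 were higher still in the proximal colon, between 74.9 and 199 FPKM. H2-T3, which encodes the thymus leukaemia antigen of gut epithelium, went from 16.6 and 7.12 FPKM to 0.450 and 0.306 FPKM and was the only one of 19 tested class I genes that changed. Ldhb, the heart-type subunit of lactate dehydrogenase, had 9.47 and 9.0 FPKM in the middle and 0.260 and 1.03 FPKM in the distal libraries. The middle pair agreed closely here, and Ldhb fell by 2.68 (SE 0.20, limma adjusted p = 0.019). H2-T3 and Apol10a have near-identical relatives, so reads may have been exchanged between copies.

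Further genes that fell were named by the same rule. They were Kcnh3, a potassium channel (-2.79), 1810065E05Rik (-2.49), the proprotein convertase Pcsk5 (-2.42), the lipid droplet enzyme Hsd17b13 (-2.27) and the adrenergic receptor Adra2a (-2.19), given as log2 differences. Saa3, an acute-phase protein, was the only one of 20 tested host defence genes that fell, by 1.48. Retnlb, a goblet cell defence protein, had 24.4 and 7.99 FPKM in the middle and 0.257 and 0.407 FPKM in the distal libraries, and did not pass (difference -3.51, SE 0.49, limma adjusted p = 0.069). Rbp4, the retinol carrier, fell by 1.45, having been higher in the middle (10.4 and 9.73 FPKM) than in the proximal libraries (5.14 and 4.45 FPKM). Ugt1a1, the enzyme that conjugates bilirubin, fell by 1.27, but it shares exons with the other Ugt1a genes, so its value is uncertain. Its proximal libraries had 146 and 104 FPKM, and its first step (-2.62) was the larger in size. The other 19 genes that fell, which the rule did not name, ran from Mt3 (-2.43) to Slc12a8 (-0.89) and included Slc13a1, a sulphate cotransporter (-2.25), and Bmp3, a growth factor of the BMP family (-0.89). These were picked after their values were seen.

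Snora21, a small nucleolar RNA of 137 bases that lies within Rpl23, had 20.1 and 16.0 FPKM in the middle libraries and was listed at 0 in both distal and both proximal libraries. Rpl23 itself had 601 and 915 FPKM in the middle and 863 and 915 FPKM in the distal libraries. Small nucleolar RNAs are not polyadenylated, whereas the libraries were made from polyadenylated RNA, and how far these values are reads of Rpl23 was not tested.

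In further lists no gene changed. Of 31 tested proliferation genes, 29 had a fitted difference below 0, with a median of -0.30, none past the limma threshold and 5 lower at an unadjusted p under 0.05. Of 25 interferon-response genes, 22 lay below 0 with a median of -0.39, and 6 were lower at an unadjusted p under 0.05. Of 44 ribosomal protein genes, 43 lay above 0 with a median of 0.18, none of them below an unadjusted p of 0.05. Their sum was 41344 and 60627 FPKM in the middle and 55062 and 58167 FPKM in the distal libraries. It was thus higher in the distal colon in the male libraries only, and the distal sums lay within the middle range. Over all 11815 tested genes, 6095 lay above 0 and 5720 below. Of 16 circadian clock genes, 15 lay above 0 with a median of 0.24 and 5 were higher at an unadjusted p under 0.05. No label gives the time of day of collection. Among 5 gasdermin genes, pore-forming proteins of surface colonocytes, 4 were higher and 1 lower at an unadjusted p under 0.05, and the median difference of the 5 was 0.79. Gsdmc3 had 43.7 and 87.9 FPKM in the middle and 126 and 207 FPKM in the distal libraries, and its reads may be shared with other Gsdmc copies.

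**Figure D4:**
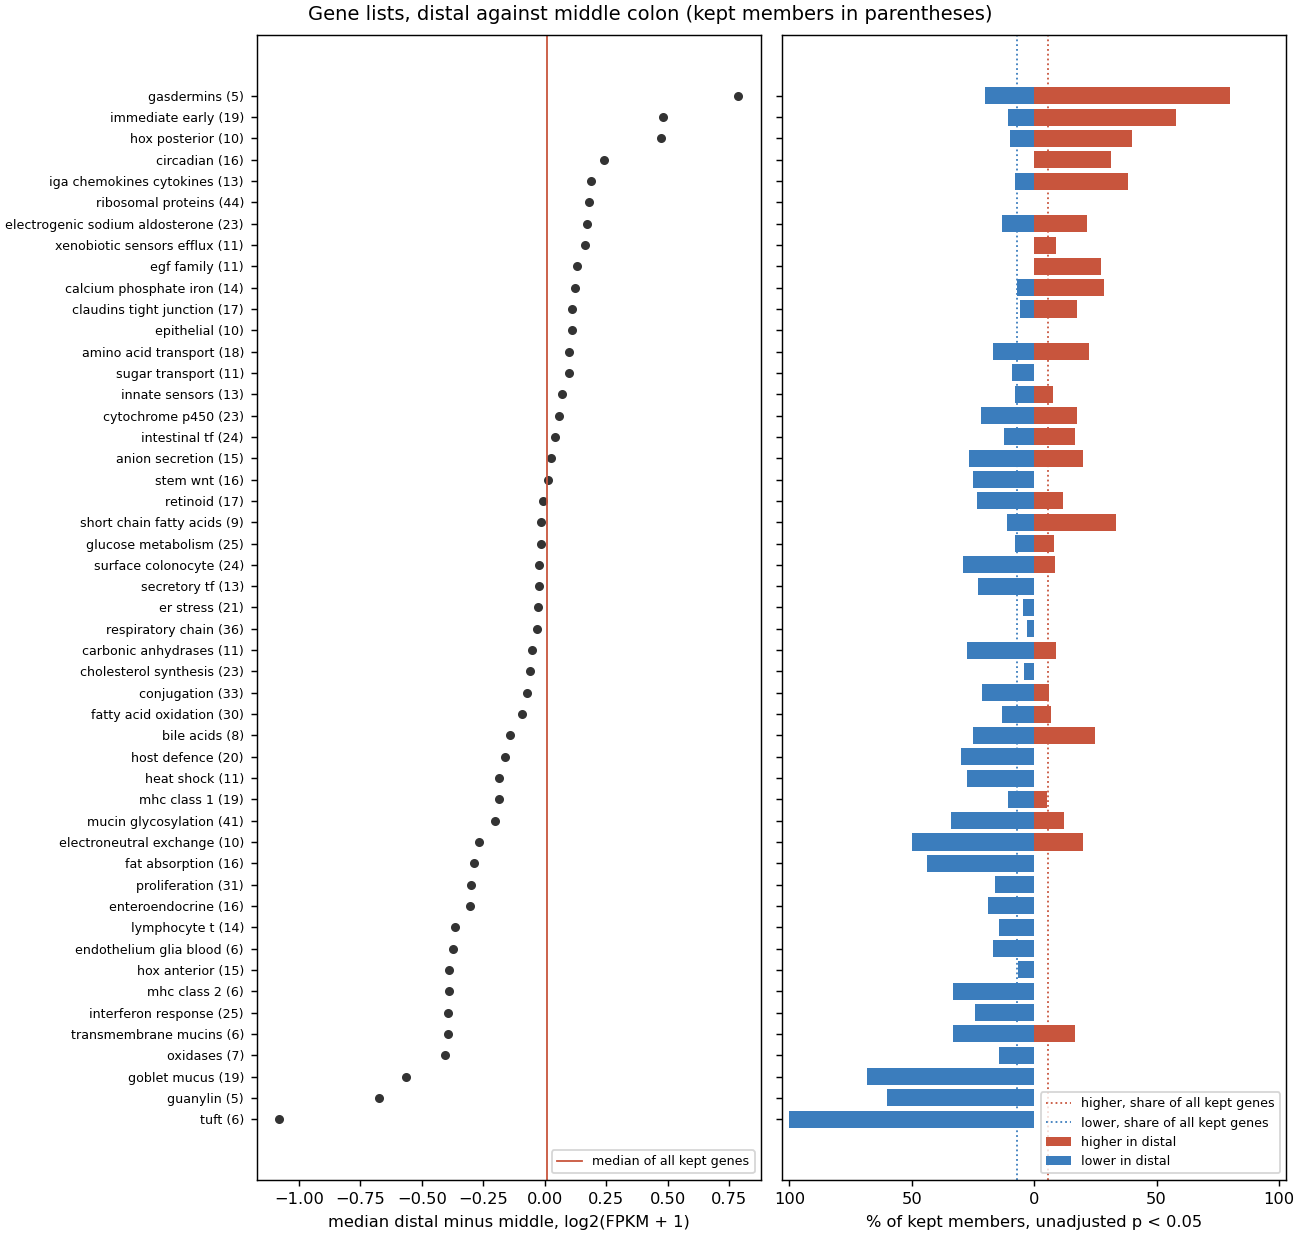
For each gene list with at least 5 tested members, the left panel gives the median distal minus middle difference in log2(FPKM + 1), with a line at the median of all tested genes, 0.01. The right panel gives the percentage of tested members higher (red) or lower (blue) at an unadjusted p under 0.05, with dotted lines at 5.61% and 7.08%, the shares over all tested genes; tuft cell, guanylin and goblet cell genes lie at the low end and gasdermin, immediate-early and posterior HOX genes at the high end, where 4 of the 10 posterior HOX genes were admitted through the distal libraries alone.

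The second step along the colon was also compared with the first in the same fit. The difference between the steps, (distal minus middle) minus (middle minus proximal), passed for 2 of 11815 genes (0.0169%), Hoxd13 and Snora21. For Hoxd13 the first step was 0.08 and the second 5.26, so the steps differed by 5.18 (limma, adjusted p = 0.012). For Snora21 the first step was 4.24 and the second -4.24 (limma, adjusted p = 0.0063 for the difference). Snora21 was listed at 0 in the other 4 libraries, so both steps hold the same middle values, and Hoxd13 entered the test through its distal values alone. Both genes passed for distal against middle with no filter on low values. At an unadjusted p under 0.05 the count was 816 (6.91%). No gene passed without the male or without the female middle library (536 and 713 at an unadjusted limma p under 0.05), 40 passed without the male and 267 without the female proximal library, and 3 passed without either distal library. The steps share the middle libraries, so they are not independent of each other.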

How the data were processed

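RNA was taken from epithelial cells of 3 colon regions, 1 male and 1 female library each; per the labels' protocols, total RNA was column-purified and polyadenylated RNA made into stranded libraries. The authors deposited FPKM per gene. TopHat2 2.1.1, Bowtie2 2.2.8, SAMtools 0.1.18, Cuffdiff 2.2.1 and mm10 are named per the submitters' processing notes; their settings and annotation, and whether strand was used, are not given in the sources here. Since deposited FPKM are not counts, limma 3.58.1 (R 4.3.3) was fitted to log2(FPKM + 1) with region, sex and a variance trend, leaving 2 residual degrees of freedom. This scale understates changes of low genes. The depth estimate uses the steps between the lowest FPKM values, assumes fragments of 200 bases and is approximate. Coordinates come from GENCODE M21, matched by symbol for 23268 entries.

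Named genes were the 15 largest changes each way among genes that passed with a mean FPKM of at least 5 (then the next by p), up to 4 genes per list, every changed list member where there were 5 or fewer, and genes listed at 0 in a region. Members and lists were chosen with earlier results of these data known. The alternatives were another pseudocount, filter, scaling, variance model and sex term, the 4 libraries alone and each library left out. 1 changed gene is not reported here.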

Additional observations from a re-analysis of the deposited data

Results flagged for a closer look

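Dcn, the gene of the connective tissue proteoglycan decorin, differed between middle and distal colon in opposite directions in the sexes. It had 0.553 FPKM in the male middle and 2.34 FPKM in the male distal library, a difference of 1.10 on the log2(FPKM + 1) scale. In the female libraries it had 2.48 FPKM in the middle and 0.379 FPKM in the distal colon, a difference of -1.33. Each sex had 1 library per region, so the difference between the sexes was not tested. Among all tested genes, 10 differed by at least 1 in opposite directions in the sexes, and 3 of these had a mean FPKM of at least 5. Dcn, on the list of stroma and muscle markers, was below that level in every library.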

How the results depend on the processing

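All 59 changed genes already differed the same way in both sexes with no overlap between the regions, so a reversal was unlikely from the outset. They kept their direction under every alternative that tested them (53 of 53 with a minimum of 5 FPKM). Their number was 70 with a pseudocount of 0.1, 57 with the minimum of 5 FPKM, 52 after quantile normalization and 59 after median-ratio scaling, but 2 with no filter on low values, 29 with no variance trend, and 410 with the 4 libraries alone and the replicate block. Without the replicate block, that is without sex as a term, it was 17. The differences between male and female libraries correlated across 11810 genes by 0.142 (proximal and middle), 0.073 (proximal and distal) and 0.313 (middle and distal), and the pairing itself comes from the labelled sex. Leaving out each library gave 0 to 406 changed genes. For the second step against the first, the 2 genes became 0 with a pseudocount of 0.1 or a minimum of 5 FPKM, 1 with no filter, 1 without the replicate block and 0 to 267 with each library left out. Over the lists of functions, which leave out cell type and handling lists, the number of changed members was 21, and became 1 with no filter, 12 with no variance trend, 4 without the replicate block, 104 with the 4 libraries alone and 0 to 105 with each library left out. Of the 39 changed genes named by rule, 2 passed with no filter, 21 with no variance trend, 10 without the replicate block and 0 to 39 with each library left out. The causes were not tested. With 2 libraries per region and FPKM only, counting error is not known, and genes near 0 FPKM are least certain.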
